A study of Mus musculus with 6 samples.

Results

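Small nuclear RNAs are short, abundant noncoding RNAs that work as RNA-protein particles in the nucleus. U1 pairs with the 5′ splice site of a pre-mRNA, U2 with its branch point, and U4 and U5 join the spliceosome with U6 as a tri-snRNP. U11 and U12 take the places of U1 and U2 in the minor spliceosome, U7 directs the cleavage of replication-dependent histone pre-mRNAs, and 7SK holds the kinase P-TEFb inactive and so restrains the release of paused RNA polymerase II. Genomes carry a few genes for each of these RNAs and a large number of copies, most of them pseudogenes, which share sequence with the expressed genes.

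The copies described here are the genes whose symbol in the mm9 GENCODE annotation is exactly 7SK, U1, U2, U4, U5, U7, U11 or U12 and whose type is snRNA or misc_RNA; copies of U6 were left out. The table of 18810 genes listed 190 of them. The annotation holds 768, so 24.7% passed the authors' filter on low values. By family, 73 of 331 annotated 7SK copies were listed, 67 of 206 for U1, 27 of 51 for U2, 9 of 43 for U4, 7 of 10 for U5, 2 of 116 for U7, 1 of 5 for U11 and 4 of 6 for U12.

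RNA was sequenced from atrioventricular canal regions of C57BL/6 mouse embryos at embryonic day 15.5, dissected so as to contain the mitral, tricuspid and aortic valves. The 3 Scx-/- embryos carried a null genotype for the transcription factor Scleraxis (Scx), and the 3 Scx+/+ embryos were wild type littermates, with 1 library for each embryo. The tissue was taken in bulk, so fewer cells of a type and less RNA per cell cannot be told apart. Values are RPKM, which scale reads by exon length and library depth, and are given in the order of replicates 1, 2 and 3 of each genotype. The depth recovered from them was 46429969 to 68571023 reads per library. Scx itself stood at 33.6, 18.6 and 82.9 RPKM in Scx-/- embryos and had values of 29.5, 58.3 and 26.0 RPKM in Scx+/+ embryos. The study's own check of the genotypes was on the first exon of Scx. The table gives the gene as a whole, so its values do not check the labels. Of 42 cell type markers for the dissected region, 40 were listed, and cardiomyocyte markers summed to 15444 to 26450.2 RPKM against 357 to 525 RPKM for valve mesenchyme.

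The sequences below were read from the mm9 genome on the strand of each gene, in DNA letters, and are shown because the copies that hold the reads differ from one another at few bases or over part of their length only. For 7SK, bases 181 to 300 of the 3 copies with the highest values show where the copies on chromosomes 2 and 15 stop matching. Capitals mark the bases after the longest stretch that a copy shares with the chromosome 9 copy, which spans 235 bases for chromosome 2 and 241 bases for chromosome 15. The last line gives bases 1 to 110 of the chromosome 9 copy with the motif GATC, which recurs in the 5′ hairpin of 7SK, in capitals.
7SK, chr9:78023110-78023440, minus strand: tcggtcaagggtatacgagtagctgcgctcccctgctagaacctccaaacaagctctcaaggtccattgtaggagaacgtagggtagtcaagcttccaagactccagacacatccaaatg
7SK, chr2:6997140-6997460, minus strand: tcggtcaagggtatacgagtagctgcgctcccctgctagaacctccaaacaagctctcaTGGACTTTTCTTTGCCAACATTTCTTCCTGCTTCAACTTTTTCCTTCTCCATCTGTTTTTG
7SK, chr15:93064794-93065131, plus strand: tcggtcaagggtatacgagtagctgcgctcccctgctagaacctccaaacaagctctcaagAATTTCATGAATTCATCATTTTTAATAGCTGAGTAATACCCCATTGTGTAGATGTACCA
7SK, chr9:78023110-78023440, minus strand: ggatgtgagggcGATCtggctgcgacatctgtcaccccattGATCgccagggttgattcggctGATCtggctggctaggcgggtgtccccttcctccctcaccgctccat

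Of U2, the full-length chromosome 11 copy is shown with the branch point pairing motif GTAGTA and the Sm site ATTTNTG in capitals, and the 149-base chromosome 1 copy with the bases after its shared 5′ stretch of 77 bases in capitals.
U2, chr11:101503062-101503252, plus strand: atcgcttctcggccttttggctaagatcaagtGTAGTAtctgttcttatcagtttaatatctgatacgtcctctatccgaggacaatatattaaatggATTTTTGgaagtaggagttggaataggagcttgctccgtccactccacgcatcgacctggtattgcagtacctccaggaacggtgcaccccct
U2, chr1:157801704-157801852, plus strand: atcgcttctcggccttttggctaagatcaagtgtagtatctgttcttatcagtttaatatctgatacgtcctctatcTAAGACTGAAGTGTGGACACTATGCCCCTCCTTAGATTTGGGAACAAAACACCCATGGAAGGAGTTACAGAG

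Of U1, the chromosome 12 copy is shown with the 5′ splice site pairing motif ACTTACC and the Sm site ATTTNTG in capitals. In both chromosome 3 copies, capitals mark the bases that are not identical to it in an alignment over the full length. In the 121-base chromosome 1 copy, capitals mark the bases outside the stretch of 70 bases that it shares with the chromosome 12 copy.
U1, chr12:55815205-55815368, plus strand: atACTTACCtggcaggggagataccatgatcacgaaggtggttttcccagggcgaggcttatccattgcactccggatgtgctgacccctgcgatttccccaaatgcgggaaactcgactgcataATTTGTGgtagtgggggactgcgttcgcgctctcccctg
U1, chr3:96292652-96292816, plus strand: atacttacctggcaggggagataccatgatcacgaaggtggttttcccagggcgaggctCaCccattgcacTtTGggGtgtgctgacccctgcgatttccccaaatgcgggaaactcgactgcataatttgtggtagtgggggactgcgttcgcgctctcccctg
U1, chr3:96177944-96178108, plus strand: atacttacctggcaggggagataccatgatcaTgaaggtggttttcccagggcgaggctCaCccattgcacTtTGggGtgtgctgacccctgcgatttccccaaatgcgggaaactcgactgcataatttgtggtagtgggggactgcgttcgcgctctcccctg
U1, chr1:48519017-48519137, minus strand: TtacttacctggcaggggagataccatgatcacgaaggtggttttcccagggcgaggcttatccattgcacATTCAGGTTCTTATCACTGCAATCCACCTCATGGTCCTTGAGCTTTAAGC

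The U4 pair differed at A88G and A99C, counted from the 5′ end, with the base of the first copy named first. The other lines give the highest copy of U12, U11 and U7, with capitals for the branch point pairing motif GTAAGGA and the Sm site ATTTNTG of U12, and the motif CTCTTTT of U7, which pairs with histone pre-mRNA. No capitals were set in U11.
U4, chr5:115940263-115940403, plus strand: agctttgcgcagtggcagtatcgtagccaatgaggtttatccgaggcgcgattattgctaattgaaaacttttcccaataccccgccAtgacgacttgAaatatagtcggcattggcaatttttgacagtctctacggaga
U4, chr5:115939468-115939608, plus strand: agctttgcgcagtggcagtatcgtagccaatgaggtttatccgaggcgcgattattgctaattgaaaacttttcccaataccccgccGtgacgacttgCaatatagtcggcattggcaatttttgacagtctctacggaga
U12, chr15:82980074-82980224, plus strand: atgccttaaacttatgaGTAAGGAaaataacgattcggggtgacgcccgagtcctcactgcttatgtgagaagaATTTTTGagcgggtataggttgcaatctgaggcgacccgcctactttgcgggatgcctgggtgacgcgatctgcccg
U11, chr4:131825995-131826128, minus strand: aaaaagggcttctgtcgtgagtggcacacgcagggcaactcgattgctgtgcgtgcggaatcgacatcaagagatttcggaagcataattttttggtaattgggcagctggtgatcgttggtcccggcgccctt
U7, chr6:124691243-124691304, minus strand: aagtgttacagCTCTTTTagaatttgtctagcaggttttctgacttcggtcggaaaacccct

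A small set of copies held the reads, and 7SK stood far above the rest. The chromosome 9 copy of 7SK (ENSMUSG00000065037), which lies outside other genes, stood at 72240.1, 84399 and 92251 RPKM in Scx-/- embryos and had values of 68724, 326606 and 119661 RPKM in Scx+/+ embryos. The genotypes overlapped, with Scx+/+ replicate 2 far above and Scx+/+ replicate 1 below every other library. This copy alone took 2.27% to 3.96% of the reads in 5 libraries and 10.8% in Scx+/+ replicate 2. The 190 copies together held 29.8% to 45.9% of the RPKM sum of the table in those 5 libraries and 58.7% in Scx+/+ replicate 2, and 7SK held 61.1% to 81.6% of the sum over the copies.

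The next 7SK copies followed it closely and are not full copies of the same RNA. The chromosome 2 copy (ENSMUSG00000065824), within an intron of Celf2 on the same strand, had a mean of 117679 RPKM, and the chromosome 15 copy (ENSMUSG00000065911) a mean of 113091 RPKM, beside 127314 RPKM for chromosome 9. In reads they stood at 83.9% to 91.9% and at 84.6% to 93.0% of the chromosome 9 copy in the 6 libraries. The X chromosome copy (ENSMUSG00000064999), whose longest shared stretch is 109 bases, had 28.3% to 38.2% of those reads and a mean of 46816 RPKM. A step separated these 4 from the fifth, at 2655 RPKM, and 4 copies held 98.1% to 98.5% of the 7SK sum in every library. Of the 73 copies, 48 had a mean under 1 RPKM.

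**Figure D1:**
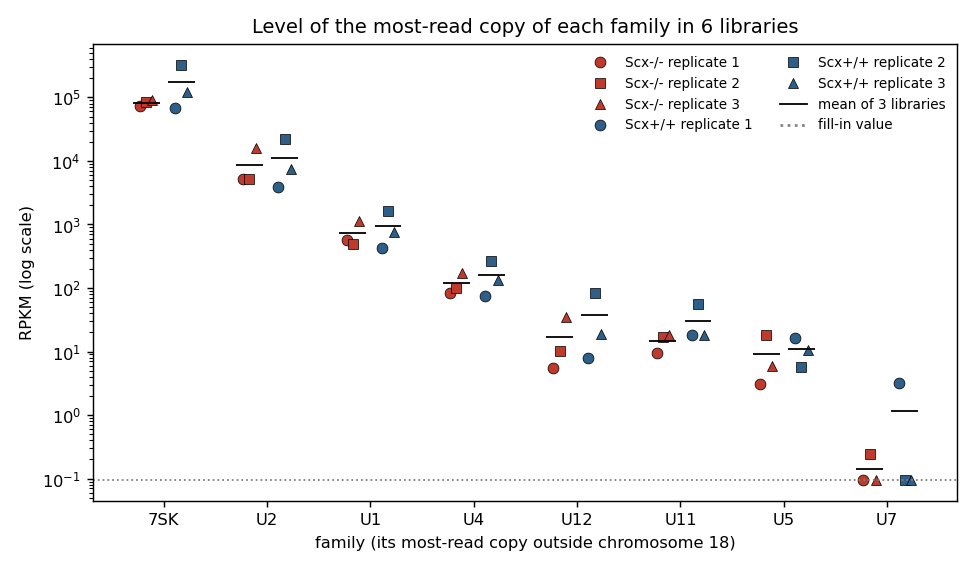
RPKM on a log axis of the most-read copy of each family outside chromosome 18, in 3 Scx-/- and 3 Scx+/+ libraries, with bars at group means and a dotted line at the fill-in value of 0.0949 RPKM. The families span from 7SK at 68724 to 326606 RPKM down to U7 at 0.0949 to 3.22 RPKM, and the genotypes overlap in each family.

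U2 was the second family. Of its full-length copies, 5 lie in a tandem array at chr11:101466164-101519742 and had means of 9901 to 9919 RPKM. One of them (ENSMUSG00000064702) stood at 5219, 5112 and 15849 RPKM in Scx-/- embryos and had values of 3935, 21827 and 7570.0 RPKM in Scx+/+ embryos. Scx+/+ replicate 2 and Scx-/- replicate 3 were the high libraries and the genotypes overlapped. The highest U2 value per length belonged to the 149-base chromosome 1 copy (ENSMUSG00000077419), which lies within an intron of Cep350 on the opposite strand, with a mean of 11279 RPKM. Its longest stretch in common with the array copies is its first 77 bases, and it held 85.5% to 91.4% of the reads of the array copy in each library. Its higher RPKM came with fewer reads over a shorter gene. Altogether 13 of 27 copies had a mean of at least 100 RPKM.

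U1 was spread over the largest number of copies. Of its 67 listed copies, 20 had a mean of at least 100 RPKM and the highest held only 5.49% to 6.20% of the family sum. The chromosome 12 copy shown above (ENSMUSG00000075996) stood at 572, 494 and 1127 RPKM in Scx-/- embryos and had values of 422, 1635 and 747 RPKM in Scx+/+ embryos. It has the same sequence as 6 other copies on chromosomes 11 and 12, and this group of 7 had means of 832 to 833 RPKM. The group includes ENSMUSG00000070246, in an intron of Tex14 on chromosome 11, at 833 RPKM. A copy on chromosome 18 within an intron of Rock1 (ENSMUSG00000065941), identical to it at 99.4% of bases, had 834 RPKM. The 121-base chromosome 1 copy (ENSMUSG00000064943) was the highest per length at a mean of 860.3 RPKM, with 70.3% to 81.1% of the reads of the chromosome 12 copy.

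A cluster of 8 U1 copies at chr3:96132348-96292816 fell into separate levels. The copy ENSMUSG00000064447 had a mean of 629 RPKM and 72.9% to 81.4% of the reads of the chromosome 12 copy. ENSMUSG00000075728 differs from it only at C33T, counted from the 5′ end, and had a mean of 88.7 RPKM. Its reads were 15.8%, 15.2% and 6.75% of those of the chromosome 12 copy in the Scx-/- libraries and 10.7%, 9.43% and 12.7% in the Scx+/+ libraries. That ratio was lowest in Scx-/- replicate 3 and its genotypes overlapped.

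U4 rested on a pair of genes at chr5:115939468-115940403. ENSMUSG00000075779 stood at 84.6, 98.9 and 175 RPKM in Scx-/- embryos and had values of 74.9, 269.9 and 136 RPKM in Scx+/+ embryos. ENSMUSG00000075998 had 98.7% to 102% of its reads in each library, and the remaining 7 copies were at or below 2.08 RPKM. The next highest, ENSMUSG00000064419 and ENSMUSG00000084440, lie in introns of Wdr1 and Map3k7 on the opposite strand and had means of 2.08 and 1.88 RPKM. Together these 4 held 96.9% to 99.6% of the U4 sum.

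The minor spliceosomal RNAs U12 and U11 were lower than U4 in every library, and both were again highest in Scx+/+ replicate 2. The chromosome 15 copy of U12 (ENSMUSG00000065176) stood at 5.44, 10.3 and 34.6 RPKM in Scx-/- embryos and had values of 8.05, 84.0 and 18.8 RPKM in Scx+/+ embryos. The highest library was 15.4 times the lowest, the widest range among the highest copies apart from U7. ENSMUSG00000065836, ENSMUSG00000064851 and ENSMUSG00000065057 followed at means of 7.57, 2.89 and 0.306 RPKM. The one listed U11 copy (ENSMUSG00000077323) stood at 9.56, 16.7 and 18.2 RPKM in Scx-/- embryos and had values of 18.2, 55.6 and 18.5 RPKM in Scx+/+ embryos. The ranges overlap, although the lowest of the 6 values was in Scx-/- and the highest in Scx+/+.

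U5 did not follow that order. ENSMUSG00000075930 stood at 3.13, 18.3 and 5.92 RPKM in Scx-/- embryos and had values of 16.2, 5.76 and 10.7 RPKM in Scx+/+ embryos, so that Scx-/- replicate 2 and Scx+/+ replicate 1 were high and Scx+/+ replicate 2 was low. Its neighbour ENSMUSG00000075763 had a mean of 9.85 RPKM. ENSMUSG00000064430 and ENSMUSG00000070228 on chromosome 4 had means of 5.77 and 4.39 RPKM, and the reads of the former ranged from 5.26% to 132% of those of ENSMUSG00000075930. With 431 reads over 6 libraries in the highest copy, counting error is wider for U5 than for the families above.

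U7 was barely detected. ENSMUSG00000089083 overlaps an exon of Grcc10 on the same strand, so their reads cannot be told apart by position or strand. It was at the fill-in value in 4 libraries, at 0.241 RPKM in Scx-/- replicate 2 and at 3.22 RPKM in Scx+/+ replicate 1. The other copy, ENSMUSG00000089028, had a mean of 0.293 RPKM. Beyond fill-in values they rest on 13 and 5 reads.

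Copies with identical sequence had nearly identical reads. There were 5 groups of identical copies with 18 copies in all, 4 of U1 and 1 of U2. In the group of 4 U2 copies on chromosome 11, the copies differed by at most 24 reads in any library, with group means of 45112 to 193562 reads. A pair of U1 copies on chromosome 3 had equal reads in all 6 libraries. Across the 5 groups the variance of reads between copies was at most 0.0248 times their mean, where independent reads would give a value near 1. The values of such copies are one measurement, and sums over copies can hold the same read several times.

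In 7SK, U1 and U2, the level of a copy followed the length it shares with the most-read copy of its family. The most-read copy was chosen outside chromosome 18 throughout. The median longest identical stretch was 18 bases over the listed 7SK copies, 43 bases for U1 and 52 bases for U2. All 9 listed 7SK copies with a stretch of at least 40 bases had a mean of at least 302.6 RPKM, and the highest with a shorter stretch was at 127 RPKM. For U1, 34 copies had such a stretch, the lowest at 2.34 RPKM, and the highest without one was at 8.14 RPKM. For U2, 18 copies had one, the lowest at 4.43 RPKM, against a highest of 3.91 RPKM without. In U4 the lowest copy with such a stretch was at 0.694 RPKM and the highest without one at 1.88 RPKM. All listed copies of U5 and U12 had such a stretch, and they went down to 0.344 and 0.306 RPKM. Spearman's rho between stretch and mean RPKM was 0.63 over 73 7SK copies, 0.85 over 67 U1 copies and 0.95 over 27 U2 copies, given as a description because the copies share reads. Of the 578 annotated copies that the table did not list, 4 had a stretch of at least 40 bases. The read length and the treatment of reads with several alignments are not given in the sources used here.

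**Figure D2:**
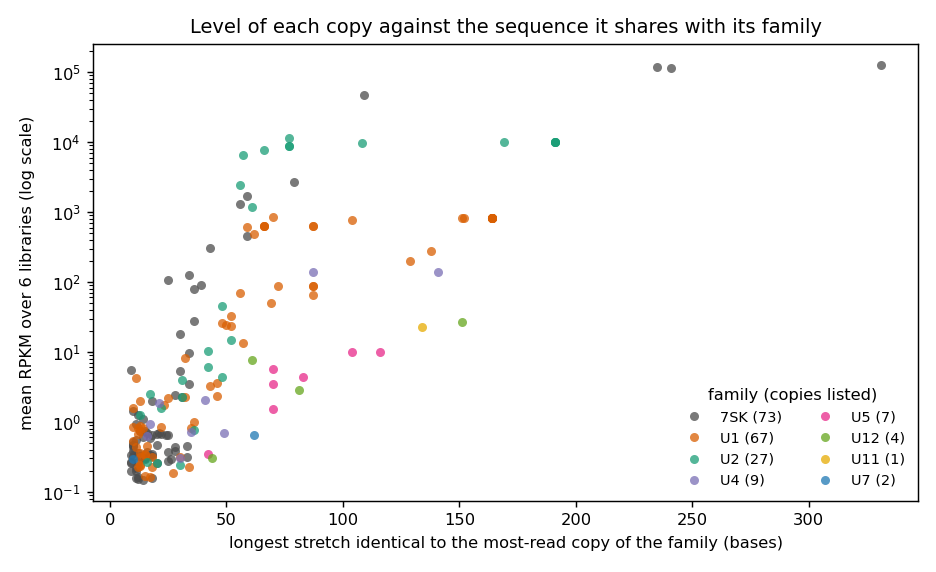
Mean RPKM over 6 libraries on a log axis against the longest stretch, in bases, that each of the 190 copies shares with the most-read copy of its family outside chromosome 18. Copies with short stretches lie near the floor of the table, and the copies of 7SK, U1 and U2 with stretches over 100 bases lie above 100 RPKM.

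In U1, U2 and 7SK, the motifs of the functional RNAs were more frequent in the copies at 10 RPKM or more than in the other listed copies. ACTTACC was in 27 of 31 such U1 copies and 9 of 36 others, and in 28 of 139 copies not listed. Among 1233 other annotated short RNA genes of 120 to 178 bases, 0.162% held it on the RNA strand and 0.324% on the opposite strand. GTAGTA was in 16 of 16 such U2 copies and 6 of 11 others, and in 7 of 24 copies not listed, beside 1.74% and 1.58% of 3789 other short RNA genes. The Sm site ATTTNTG was in 11 of those 16 U2 copies and 26 of the 31 U1 copies, beside 8.47% and 4.87% of the other genes of each length range. It was in 4 of 24 U2 and 56 of 139 U1 copies that were not listed. The highest copies without it were the truncated chromosome 1 copies of U2 and U1. GATC occurred at least 2 times in 12 of 15 7SK copies at 10 RPKM or more and in 23 of 58 others, beside 7.84% of 3930 other genes, and it reads the same on both strands. Over 7SK as a whole the listed copies did not stand apart, with 35 of 73 against 119 of 258 copies not listed. GTAAGGA was in all 4 listed and both unlisted U12 copies, and CTCTTTT in both listed and 51 of 114 unlisted U7 copies, beside 2.04% of 49 and 3.28% of 61 other genes. Motifs were searched on the RNA strand as spelled, with overlapping matches counted, and ATTTNTG was not required to lie at the position of a known Sm site. Copies at 10 RPKM or more tend to share longer stretches with the most-read copy, which itself carries these motifs. Their higher motif counts are therefore not separate evidence. Of the U1 and U2 copies at that level, 18 are identical in sequence to another, so the counts do not describe independent copies.

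The lower copies lay within introns of other genes more often than the higher ones. Of 124 copies with a mean under 10 RPKM, 50 lay in an intron on the strand of the host gene, 29 in an intron on the opposite strand, 5 across an exon and 40 outside other genes. Of 66 copies at 10 RPKM or more, 15, 7, 0 and 44 did. Reads of a host pre-mRNA and of a copy in its intron cannot be told apart in this table, and their part in the values was not tested.

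All 66 copies with a mean of at least 10 RPKM, whatever their family, were highest in Scx+/+ replicate 2. That library was the highest for 28.4% of the 5295 genes at that level in the whole table and for 24.1% of the 3917 protein-coding ones. The share was 69.6% of the 69 snoRNA genes at that level. Among the 991 genes of the table with a mean of at least 100 RPKM it was 47.5%, so the pattern was not particular to these copies. The copies share reads, so the 66 are not separate observations. In 49 of the 66, Scx-/- replicate 3 came second, and in 48, Scx+/+ replicate 1 was lowest. Of the 124 lower copies, 30 were highest in Scx+/+ replicate 2, among them neither of the U5 pair just under 10 RPKM.

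How far Scx+/+ replicate 2 stood apart differed by family. The most-read copy was at 3.87 times the median of the other 5 libraries for 7SK, 4.18 times for U2, 2.86 times for U1, 2.73 times for U4, 3.06 times for U11 and 8.17 times for U12, and 0.539 times for U5. Scx-/- replicate 3 stood at 3.04 times the median of the others for U2, 3.36 times for U12, 1.97 times for U1 and 1.77 times for U4, but 1.09 times for 7SK and 1.01 times for U11. Between the most-read copies, the RPKM ratio of U2 to 7SK was 0.172 in Scx-/- replicate 3 and 0.0573 to 0.0722 in the other libraries. The ratio of U4 to U1 stayed within 0.148 to 0.200.

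**Figure D3:**
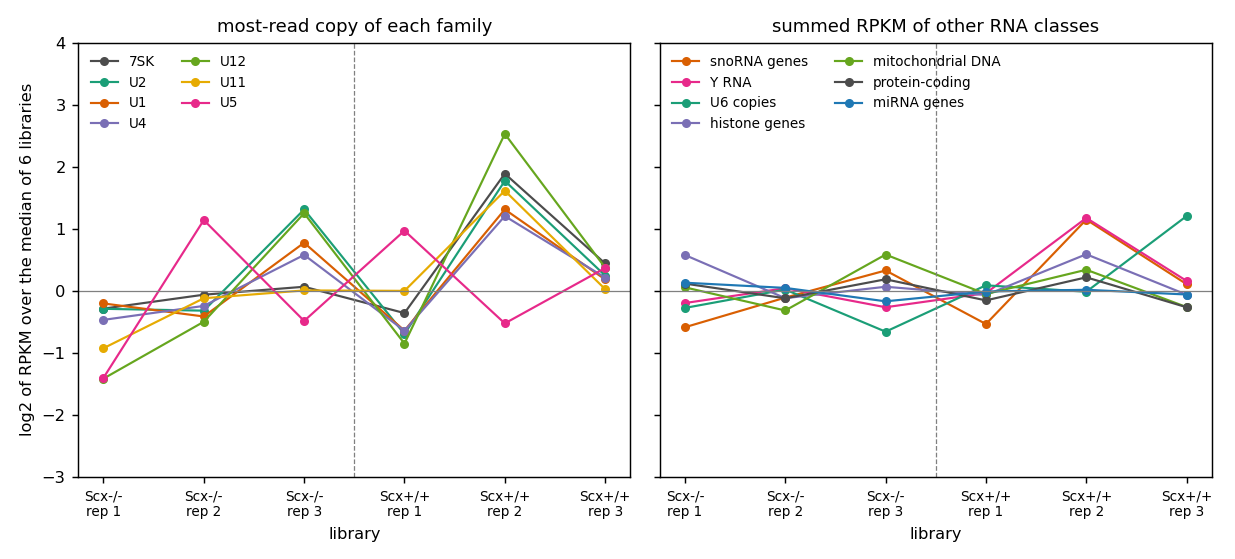
Log2 of RPKM over the median of the 6 libraries, for the most-read copy of 7 families (left) and for the summed RPKM of other RNA classes (right), with the genotypes separated by a dashed line. 7SK, U1, U2, U4, U11 and U12 peak in Scx+/+ replicate 2, where snoRNA and Y RNA are also highest, while U5 is low there and miRNA genes stand at 1.02 times the median of the others.

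Other RNA classes moved with these copies in part. In Scx+/+ replicate 2, the sum over 449 snoRNA genes stood at 2.39 times the median of the other libraries and that over 4 Y RNA copies at 2.32 times. The 70 replication-dependent histone genes stood at 1.57 times, genes of mitochondrial DNA at 1.31 times and protein-coding genes at 1.26 times. The miRNA genes stood at 1.02 times and the 172 U6 copies at 0.976 times. Mitochondrial genes, some of which are also in the protein-coding sum, were highest in Scx-/- replicate 3, at 1.55 times the median of the others. Histone genes were nearly as high in Scx-/- replicate 1 (18259 RPKM) as in Scx+/+ replicate 2 (18416 RPKM). The U6 sum was only 80.1 to 292 RPKM, and 166 of its 172 copies held a fill-in value. It thus rests on copies near the floor and does not give the level of U6 snRNA. The sum of cardiomyocyte markers was also highest in Scx+/+ replicate 2 (26450.2 RPKM) and second in Scx-/- replicate 3 (25188 RPKM). The other 4 libraries were at 15444 to 20398 RPKM. Not every marker had this order. Myl2, Myh6 and Actc1 did, and Tnnt2 had the same libraries on top in reverse. Myh7 was highest in Scx+/+ replicate 2 but not second in Scx-/- replicate 3. Myl7 was highest in Scx-/- replicate 2 (537 RPKM), and Ttn was lowest in Scx+/+ replicate 2 (92.4 RPKM). The part of any of these in the snRNA values was not tested. The median log2 ratio of a library to the mean library was between -0.13 and 0.15 in all 6.

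The study compared Scx-/- with Scx+/+ embryos, and the copy with the highest mean RPKM of each family did not differ between the genotypes beyond the spread of the libraries. With limma on log2(RPKM + 0.1), the log2 difference, Scx-/- minus Scx+/+, was -0.75 (SE 1.5) for 7SK, -0.26 (SE 0.49) for the highest U1 copy, -0.17 (SE 0.79) for U2 and -0.30 (SE 0.44) for U4. It was -0.51 (SE 0.60) for U5, -1.10 (SE 1.07) for U7, -0.89 (SE 0.43) for U11 and -0.90 (SE 0.86) for U12. None of the 8 passed an unadjusted p below 0.05, and the limma adjusted p over all 18810 genes was at least 0.967 for each. For the most-read copies of U1 and U2 outside chromosome 18, which are other copies than these, the log2 difference was -0.23 (SE 0.50) and -0.21 (SE 0.77). Each limma SE pools the spread of a copy with a trend over all genes, so it is not the spread of that copy alone. For 7SK the SE was 0.56 with limma without a trend and 0.67 with one-way ANOVA. The copies themselves also spread widely. Their median standard deviation within genotypes on the log2 scale was 0.83 at 10 RPKM or more. It was 0.24 for protein-coding genes and 0.79 for snoRNA genes at that level. The median ratio of the highest to the lowest library was 4.67 for these copies, 1.57 for those protein-coding genes and 4.26 for those snoRNA genes. The wide spread was thus shared by snoRNA genes.

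Of the 66 copies at 10 RPKM or more, none passed an unadjusted p below 0.05 with limma, beside 3.89% of all genes, and the smallest p among them was 0.0508. The count was 0 with one-way ANOVA too, 1 with library medians set to 0, 6 with quantile normalization, 8 without Scx+/+ replicate 1 and 1 without Scx+/+ replicate 2. Over all genes at that level it was 231, and under those alternatives 320, 156, 176, 356 and 770. Differences were below 0 for 62 of the 66, with a median log2 difference of -0.24, against a median of 0.14 over all genes at that level. Without Scx+/+ replicate 2, 16 of the 66 were below 0 and their median was 0.28. Without Scx-/- replicate 2 there were 36 below 0 with a median of -0.039, and without Scx-/- replicate 1 there were 49 with a median of -0.10. Leaving out any of the other 3 libraries gave 62 to 66 below 0. The direction of these copies thus depended on which libraries were included. By family, the log2 difference of the highest copy without Scx+/+ replicate 2 was -0.14 for 7SK, 0.51 for U2, 0.23 for U1, 0.17 for U4, 0.019 for U12 and -0.36 for U11.

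Among all 190 copies, 9 passed an unadjusted p below 0.05 with limma, 3 higher and 6 lower in Scx-/-. That is 4.74%, beside 3.89% of all genes, 2.82% higher and 1.06% lower. Leaving out 1 library gave 3 to 22, the lowest without Scx+/+ replicate 3 and the highest without Scx+/+ replicate 1. That is 1.58% and 11.6%, beside 2.87% and 5.33% of all genes without those libraries. None passed at an adjusted p below 0.05, and the smallest adjusted p was 0.967. In 4 copies all Scx-/- values lay above all Scx+/+ values and in 2 below, beside 7.19% and 2.31% of all genes. The median log2 difference over the 190 copies was -0.27, against 0.10 over all genes. It was -0.38 after the median of each library was set to 0, and 0.018 without Scx+/+ replicate 2. The 190 copies are those that passed the filter on low values and are not all copies.

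**Figure D4:**
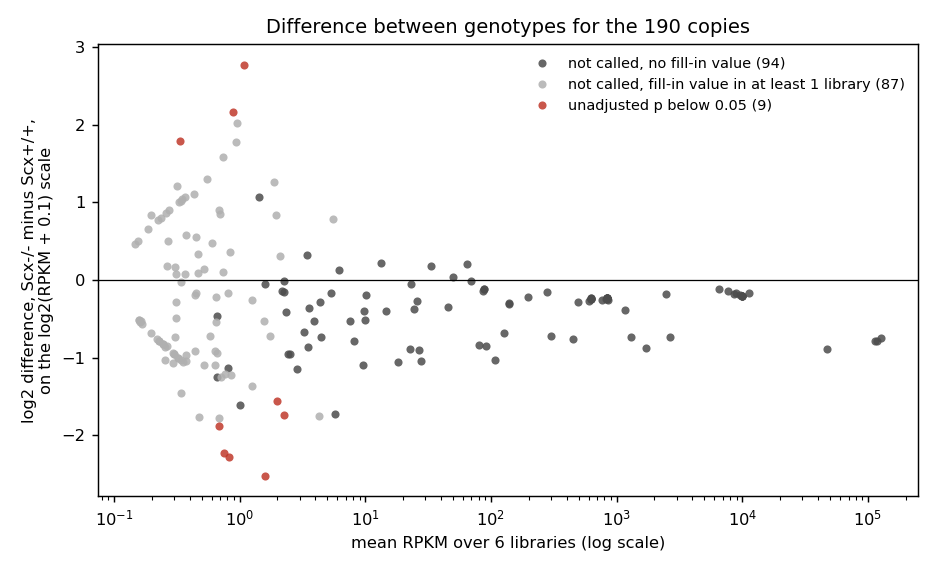
Log2 difference, Scx-/- minus Scx+/+, on the log2(RPKM + 0.1) scale against mean RPKM on a log axis for the 190 copies; red points passed an unadjusted p below 0.05 with limma. The 9 red points lie between 0.338 and 2.26 RPKM, and no copy above that level passed.

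The 9 copies were 5 of 7SK and 4 of U1, all low, with at most 86 reads in any library and a fill-in value in 7 of them. None had a stretch of more than 31 bases in common with the most-read copy of its family. Higher in Scx-/- were the 7SK copy ENSMUSG00000089475 in an intron of Rheb (log2 difference 2.78), the 7SK copy ENSMUSG00000088514 in an intron of Bre (1.79) and the U1 copy ENSMUSG00000075829 in an intron of Ttc3 (2.16). ENSMUSG00000089475 stood at 2.03, 4.02 and 0.205 RPKM in Scx-/- and at the fill-in value, the fill-in value and 0.119 RPKM in Scx+/+, which rest on 26, 66 and 3 reads against 2 in the third Scx+/+ library. ENSMUSG00000088514, with the smallest p (0.00779, limma adjusted p = 0.967), stood at 0.443, 0.692 and 0.61 RPKM in Scx-/-, from 7, 14 and 11 reads, with every Scx+/+ library at the fill-in value.

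Lower in Scx-/- were 3 copies each of 7SK and U1. The 7SK copies ENSMUSG00000064547 (-1.73), ENSMUSG00000089129 (-1.56) and ENSMUSG00000089169 (-1.88) had means of 2.26, 1.98 and 0.689 RPKM. ENSMUSG00000089129 had 6, 43 and 16 reads in Scx-/- and 54, 39 and 61 reads in Scx+/+, and its RPKM did not overlap between the genotypes. The U1 copies ENSMUSG00000088378 (-2.52), ENSMUSG00000088913 (-2.28) and ENSMUSG00000077387 (-2.22) had means of 1.59, 0.823 and 0.745 RPKM, and in each the genotypes overlapped or shared fill-in values. ENSMUSG00000088378 overlaps an exon of Tpd52l2 on the same strand. These folds rest on the fill-in value and on the pseudocount of 0.1 RPKM, except that ENSMUSG00000064547 and ENSMUSG00000089129 held no fill-in value.

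The genes for proteins that bind, make or transport these RNAs varied less between libraries. Of 88 such genes, 86 were listed, and 4 passed an unadjusted p below 0.05 with limma, 3 higher and 1 lower in Scx-/-, or 0 at an adjusted p below 0.05. That is 4.65%, beside 3.89% of all genes. Their median log2 difference was 0.14, against 0.10 over all genes. The summed RPKM of each list ranged over 1.26 to 1.62 times between the lowest and the highest library. No list peaked in Scx+/+ replicate 2, although the Sm core list came close to it. Its sum was 310, 264 and 273 RPKM in Scx-/- embryos and 227, 307 and 212 RPKM in Scx+/+ embryos.

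Phax, which exports newly made snRNAs from the nucleus, stood at 25.3, 22.1 and 24.2 RPKM in Scx-/- embryos and had values of 18.5, 14.8 and 15.2 RPKM in Scx+/+ embryos (log2 difference 0.56, SE 0.17). The genotypes did not overlap, as in 7.19% of all genes in that direction. Gemin6, a member of the SMN complex that loads Sm proteins, stood at 8.14, 5.65 and 6.15 RPKM against 4.94, 4.10 and 4.72 RPKM (0.51, SE 0.22), and Sf3a3, a subunit of the U2 particle, at 29.1, 27.5 and 21.8 RPKM against 21.2, 18.8 and 19.0 RPKM (0.40, SE 0.17). Ints1, the largest subunit of the Integrator complex that cuts the 3′ end of snRNAs, was lower at 0.948, 0.787 and 0.487 RPKM against 1.75, 1.34 and 1.56 RPKM (-1.01, SE 0.36). The limma adjusted p was 0.967 for each of the 4.

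Besides these 4, no gene of the lists passed the test. Of the 7SK particle and P-TEFb, Larp7, which binds and stabilizes 7SK, had the highest mean at 59.9 RPKM and Hexim2, an inhibitor of P-TEFb, the lowest at 0.796 RPKM, and the median log2 difference of the 7 genes was -0.05. Of the 8 Sm core genes, whose ring binds the Sm site, Snrpd1 was highest at 70.2 RPKM and Snrpn lowest at 6.30 RPKM. Snrnp70, which binds U1, had a mean of 66.3 RPKM and Snrpc 4.01 RPKM. In the U2 list Sf3b1, which binds at the branch point, had 90.4 RPKM and Sf3a2 0.598 RPKM. Nhp2l1 and Prpf4 of the U4 and U5 particles had 28.2 and 3.27 RPKM. Among genes of the minor spliceosome, Snrnp48 had 19.9 RPKM and Zmat5 1.19 RPKM. For U7 and histone 3′ ends, Cpsf3, the endonuclease, had 16.5 RPKM and Lsm11 1.27 RPKM. Snapc5 of the complex that binds snRNA promoters had 30.8 RPKM and Ints9 0.78 RPKM, and Strap and Gemin8 of the assembly list had 42.2 and 1.01 RPKM.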

How the data were processed

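Total RNA of 6 atrioventricular canal regions was sequenced on an Illumina HiSeq. The authors aligned reads to mm9 with TopHat 1.4.1, counted reads within Ensembl exons with easyRNASeq and deposited RPKM, after they dropped genes short of about 50 reads everywhere and set low values to a shared fill-in value, 0.0949 RPKM in 8395 values of the table. By recovered reads, 100 of the 190 copies stayed under 50 reads in every library, down to a maximum of 5 reads. The listed copies thus do not follow a cut at 50 recovered reads, and the reason was not tested.

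Of the 18810 identifiers, 18695 were found in the mm9 GENCODE release used here. Depth was recovered from the steps between low values, and 98.5% to 98.6% of low values per library were whole reads within 0.1. limma 3.58.1 (R 4.3.3) compared the genotypes on log2(RPKM + 0.1) with a mean-variance trend, and Benjamini-Hochberg adjustment ran over 18810 genes. A call is an unadjusted p below 0.05, as in the study. limma was tested on simulated data. Sequences were aligned with Biopython 1.88, and the motif background was single-exon short RNA genes in the same range of lengths.

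Named are up to 4 copies of each family with the highest mean RPKM, every copy called, Scx, and of the lists of partner genes the highest and lowest mean of each and those called at 1 RPKM or more on average. The copies, the lists and the tests were chosen with earlier results of these data known. Alternatives were pseudocounts of 0.01 and 1, a mean of at least 1 RPKM, no trend, one-way ANOVA, quantile normalization, library medians set to 0, the replicate number as a block, each library left out, and for sums fill-in values at 0, no copies across exons, and reads in place of RPKM. The p-values rest on the spread between single embryos, which limma pools with a trend over all genes.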

Additional observations from a re-analysis of the deposited data

How the results depend on the processing

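The count of copies passing an unadjusted p below 0.05, 9 as reported, was 4 with only genes of at least 1 RPKM, 1 with one-way ANOVA, 14 with quantile normalization and 16 with the replicate block. Those are 3.85%, 0.53%, 7.37% and 8.42%, beside 4.11%, 4.60%, 3.75% and 3.05% of all genes in the same settings. Of the 66 copies at 10 RPKM or more, 4 passed with the replicate block, beside 141 of 5295 genes at that level, and none as reported. Leaving out 1 library moved the count over all copies between 3 and 22. It was 4 without Scx-/- replicate 1, 22 without Scx+/+ replicate 1 and 3 without Scx+/+ replicate 3. Those are 2.11%, 11.6% and 1.58%, beside 3.07%, 5.33% and 2.87% of all genes. Over all genes the count of 731 moved between 539 and 1549 on leaving out 1 library, the highest without Scx+/+ replicate 2, where none passed the limma adjusted p either. Partner genes called, 4 as reported, numbered 2 without a trend, 7 with one-way ANOVA and 2 with the replicate block. Those are 2.33%, 8.14% and 2.33%, beside 3.43%, 4.60% and 3.05% of all genes. They numbered 2 to 9 without 1 library, with 8 without Scx-/- replicate 3 and 9 without Scx+/+ replicate 2. The latter are 9.30% and 10.5%, beside 4.36% and 8.23% of all genes. The log2 difference of the highest copy ranged, without 1 library, over -1.26 to -0.14 for 7SK, -0.72 to 0.23 for U1, -0.74 to 0.51 for U2, -0.75 to 0.17 for U4, -1.20 to 0.057 for U5, -1.78 to 0.27 for U7, -1.16 to -0.36 for U11 and -1.66 to 0.019 for U12. That of the family sums ranged over -1.48 to -0.19 for 7SK, -0.80 to 0.31 for U1, -1.10 to 0.63 for U2, -0.76 to 0.18 for U4, -1.18 to 0.18 for U5, -3.30 to 0.33 for U7, -1.32 to -0.30 for U11 and -1.98 to 0.20 for U12. Quantile normalization gives the highest gene of each library the same value, so the 7SK difference became 0. U11 passed an unadjusted p below 0.05 with limma under quantile normalization (-0.97) and with the replicate block (-0.89), with limma adjusted p of 0.993 and 1.00, over a range of 0.703 to 1.00 across its alternatives. The share of the highest copy moved for U2 to 9.86% in reads, where the highest copy differs, and for U7 to 85.8% with fill-in values at 0. Without copies across exons it was 100% for U7. That setting leaves out the highest U7 copy, so the remaining copy holds the whole sum by definition. Over all results, 265 values under alternatives kept their direction and side of the threshold or stayed within the spread, and 21 moved further. Among the highest copies, 8 log2 differences changed sign, 2 newly passed the threshold and 1, that of 7SK, became 0. The family sums are not among these 8. Those of U1, U2, U4, U5, U7 and U12 also changed sign on leaving out 1 library, as the ranges above show.

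The replicate numbers were not taken to pair the samples: deviations of libraries with the same number correlated at 0.09, -0.22 and -0.19, and that of Scx-/- replicate 3 correlated best with Scx+/+ replicate 2 (0.32). With 3 libraries a genotype that differ several-fold in these RNAs, differences below that spread are not detectable. Low copies rest on few reads and on fill-in values, and near-identical copies cannot be separated. The causes of these changes were not tested.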
